A study of Arabidopsis thaliana with 8 samples.

Results

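The transcripts described here had a mean close to or above their warm level after 24 h at 4 °C and a lower one after 7 d in the cold. They were chosen from measured values, as 54 of 22746 probe sets (0.237%) on ATH1 arrays of Arabidopsis thaliana. A probe set is the group of short probes that reports 1 transcript, and its signal is a brightness on a linear scale. A member had a signal of 40 or more on both control arrays. On the scale log2(signal + 6), its mean at 24 h lay no more than 0.3 below that of the control, its mean at 7 d lay at least 0.8 below it, and both 7 d arrays lay below both control arrays. The values of the control, 24 h and 7 d arrays therefore chose the members. Their differences at those times are given as a description, and calls made on them are not read as a test. Plastid-encoded genes, PYK10, LHCB4.3 and genes with UGT symbols were left out by name. Of 56 probe sets that met the numbers, 2 were left out, and both were plastid-encoded.

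The plants were Col-0, the common laboratory accession, grown on soil under continuous fluorescent light of 100 µmol m-2 s-1 at 22 °C after 4 d of stratification. All above-ground parts were harvested, without roots. Controls (0 h, 2 arrays) were taken from those conditions, and the cold groups after 1 h, 24 h and 7 d at 4 °C (2 arrays each). Light in the cold was about 25 µmol m-2 s-1. Cold and dimmer light cannot be told apart, nor can 7 d of cold and 7 d of further age, since no warm plants of that age were analysed here. The labels give an age of 18 d for every array, also those of 7 d, and also 10 d of growth at 22 °C, which do not add up to one age at harvest. No genotype other than Col-0 was used. The labels do not say whether the 2 arrays of a time came from separate plantings, so p-values measure the spread between these arrays, which may be technical. In tissue samples such as these, fewer cells of a type and less RNA per cell cannot be told apart.

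In Arabidopsis, the first day at 4 °C switches on protective genes through the CBF transcription factors, and days to weeks of cold bring a slower adjustment called acclimation, in which growth, photosynthesis and sugar allocation are reset. Leaves kept in the cold must balance absorbed light against slowed carbon fixation. Reactive oxygen made in that state can oxidise methionine in proteins. Methionine sulfoxide reductases reverse this, SWEET proteins let sugars cross membranes, and RING-type ubiquitin ligases mark proteins for breakdown.

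Of the 54 members, 24 named 1 gene, 1 named several and 29 named none in the platform annotation used here, and the last 30 are given by probe set ID. Only MSRB6, RING1, SWEET2 and PSAE-1 had a symbol besides a locus tag, and the other 20 named genes are called by their tag. Their protein families, where given, are background knowledge. The 24 named genes lay on all 5 nuclear chromosomes, with 7 on chromosome 1, 3 on chromosome 2, 5 each on chromosomes 3 and 5, and 4 on chromosome 4. The closest pair in gene order was PSAE-1 and AT4G28240, 59 genes apart in RefSeq's order. The members were mostly well-expressed transcripts: the mean control signal had a median of 248 and ran from 46.2 to 5362, and its median percentile among all probe sets was 88.0. The rule's minimum of 40 shaped this. Control signals were over 1000 in 6 members and under 100 in 13.

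The 54 members had a median difference of -0.96 at 7 d on the log2(signal + 6) scale, with a range from -2.48 to -0.80, while the median of all 14756 probe sets tested was -0.00153. At 24 h their median difference was -0.12, against -0.10 for all probe sets tested. Of the members, 20 were at least 1 log2 unit lower at 7 d and 34 lay between 0.8 and 1 lower. Most members therefore sat close to the bound of the rule. The median signal over the 54 was 242 and 235 on the control arrays, 254.0 and 253.8 at 1 h, 245 and 239 at 24 h, and 114 and 84.2 at 7 d.

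**Figure D1:**
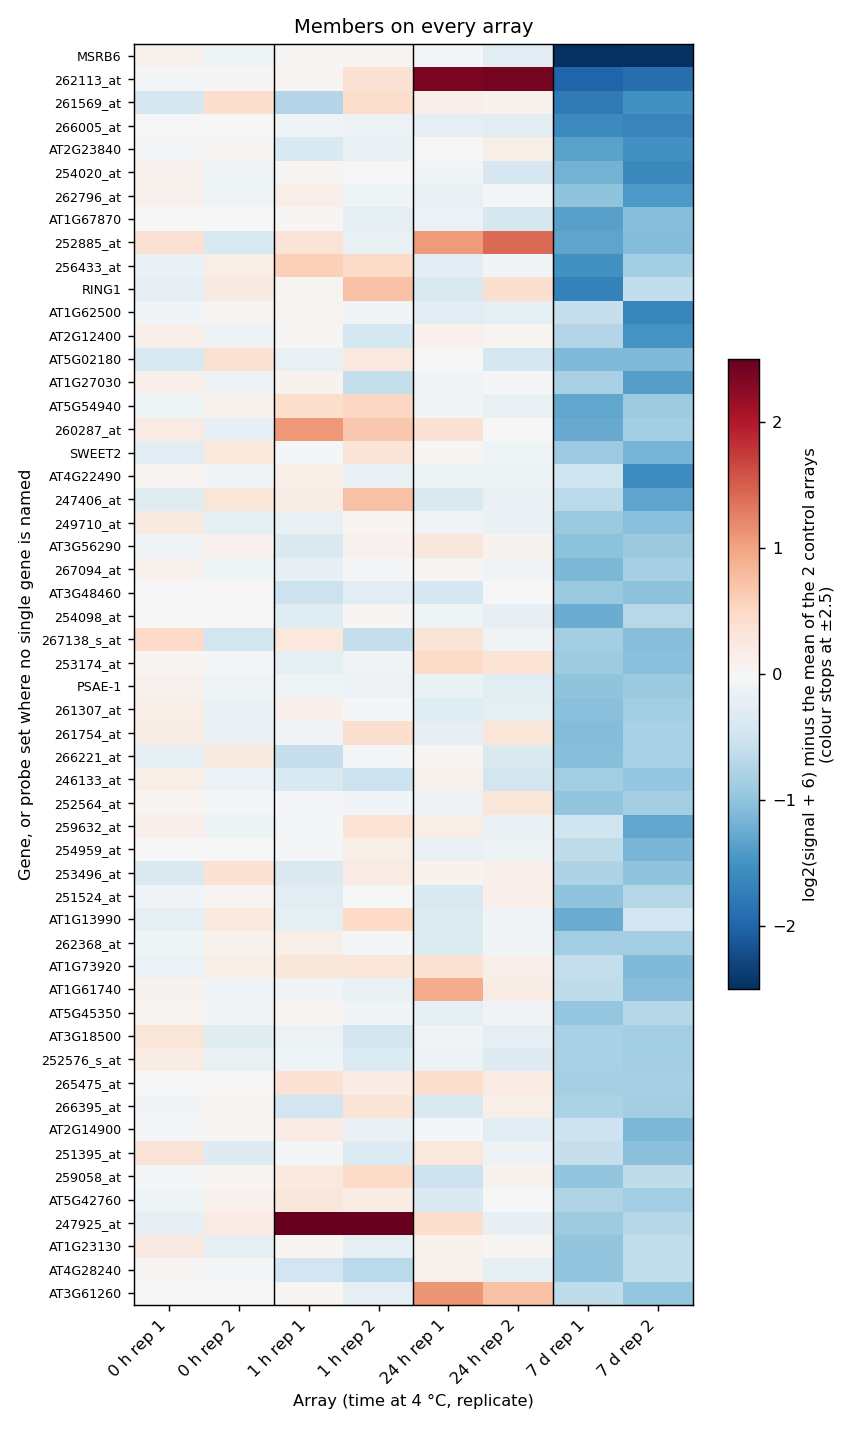
Colour shows log2(signal + 6) of each of the 54 members on each of 8 arrays, minus the mean of the 2 control arrays, with members running from the lowest to the highest difference at 7 d. Both 7 d columns are blue throughout, which the rule required; 262113_at and 252885_at stand out in red at 24 h and 247925_at at 1 h.

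**Figure D2:**
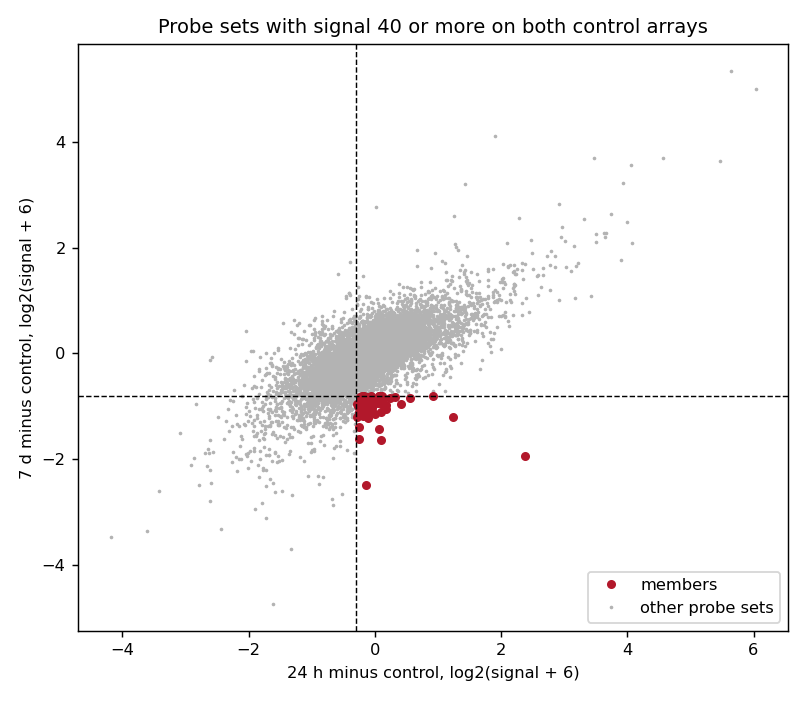
Each point is a probe set with a signal of 40 or more on both control arrays, placed by its difference from control at 24 h (x) and at 7 d (y) in log2(signal + 6). Dashed lines are the bounds of the rule at -0.3 and -0.8; most members crowd the corner where the bounds meet, while MSRB6 lies lowest at -2.48 and 262113_at farthest right at 2.38.

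The gene with the largest difference was MSRB6, which encodes a methionine sulfoxide reductase of the B type, an enzyme that repairs oxidised methionine. Its signal was 345 and 298 on the control arrays, 326 and 336 at 1 h, 316 and 265 at 24 h, and 51.8 and 53.0 at 7 d. The first 6 arrays were alike and both 7 d arrays were low and nearly equal. The mean was 52.4 ± 0.845 at 7 d and 322 ± 32.9 in the control (SD, n = 2 arrays each), 5.60-fold lower on the log2(signal + 6) scale (-2.48 ± 0.14 SE). Later folds are on this scale too, and are not ratios of the mean signals. Among 32 listed genes of redox enzymes, 6 were named and tested. MSRB6 is among them and in each count here, as the other members are in the counts of their own lists. At 7 d 3 were lower and 3 not called (median -0.41), and at 24 h 2 were lower. Of all probe sets tested, 8.54% were called lower at 7 d and 15.1% at 24 h. In the added list of methionine sulfoxide reductases, taken from RefSeq's symbols after the values were seen, 5 genes were tested. At 7 d 1 was higher, 1 lower (MSRB6 itself) and 3 did not pass. MSRB3 was 1.06 ± 0.20 higher (limma adjusted p = 0.0098). MSRB5 stood at -1.35 ± 0.28 at 24 h and at -0.61 ± 0.28 at 7 d.

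SWEET2 encodes a sugar carrier of the vacuolar membrane. It read 135 and 197 in the control, 157 and 206 at 1 h, 167 and 151 at 24 h, and 84.0 and 69.9 at 7 d. The 7 d arrays lay below the other 6, although the 2 control arrays were far apart. The mean was 76.9 ± 9.97 at 7 d against 166 ± 43.8 in the control (2.05-fold lower, -1.03 ± 0.21 SE). Its family did not move as a group. Of 7 tested SWEET genes, a list also added after the values were seen, 3 were higher, 2 lower and 2 did not pass at 7 d. The 3 were SWEET13 (2.82 ± 0.19), SWEET4 (2.09 ± 0.20) and SWEET1 (0.95 ± 0.12). The lower ones were SWEET2 and SWEET17, a fructose carrier of the vacuolar membrane, which was already lower at 24 h (-1.58 ± 0.34) and stood at -2.63 ± 0.34 at 7 d.

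PSAE-1 encodes a stromal subunit of photosystem I near the site where ferredoxin docks, and it was the brightest member. Its signal was 5768 and 4957 in the control, 4988 and 4836 at 1 h, 4775 and 4434 at 24 h, and 2661 and 2825 at 7 d. The 7 d arrays were low and close together, and the mean was 2743 ± 116 at 7 d against 5362 ± 573 in the control (1.95-fold lower, -0.96 ± 0.10 SE). Among 44 listed nuclear photosystem and light-harvesting genes, 6 were named and tested. At 7 d 4 were lower, and the median of the 6 was -0.46. At 24 h 1 was lower, LHCB4.2 (-0.73 ± 0.13, and -0.37 ± 0.13 at 7 d), and 5 did not pass. PSAN, another photosystem I subunit gene, stood at -0.19 ± 0.09 at 24 h and -0.56 ± 0.09 at 7 d, short of the bound for membership. The list for carbon fixation and photorespiration holds no member, and of its 27 genes 4 were named and tested. All 4 were lower at 7 d (median -0.63). At 24 h 1 was already lower, HPR (-1.17 ± 0.14, and -1.11 ± 0.14 at 7 d), and 3 did not pass. Of the 4, the nearest to the members' pattern was RCA, the gene of Rubisco activase, at 0.04 ± 0.10 at 24 h and -0.67 ± 0.10 at 7 d. Over all probe sets tested, 7.33% were called higher and 8.54% lower at 7 d against control (limma, adjusted p under 0.05), and 11.1% and 15.1% at 24 h.

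**Figure D3:**
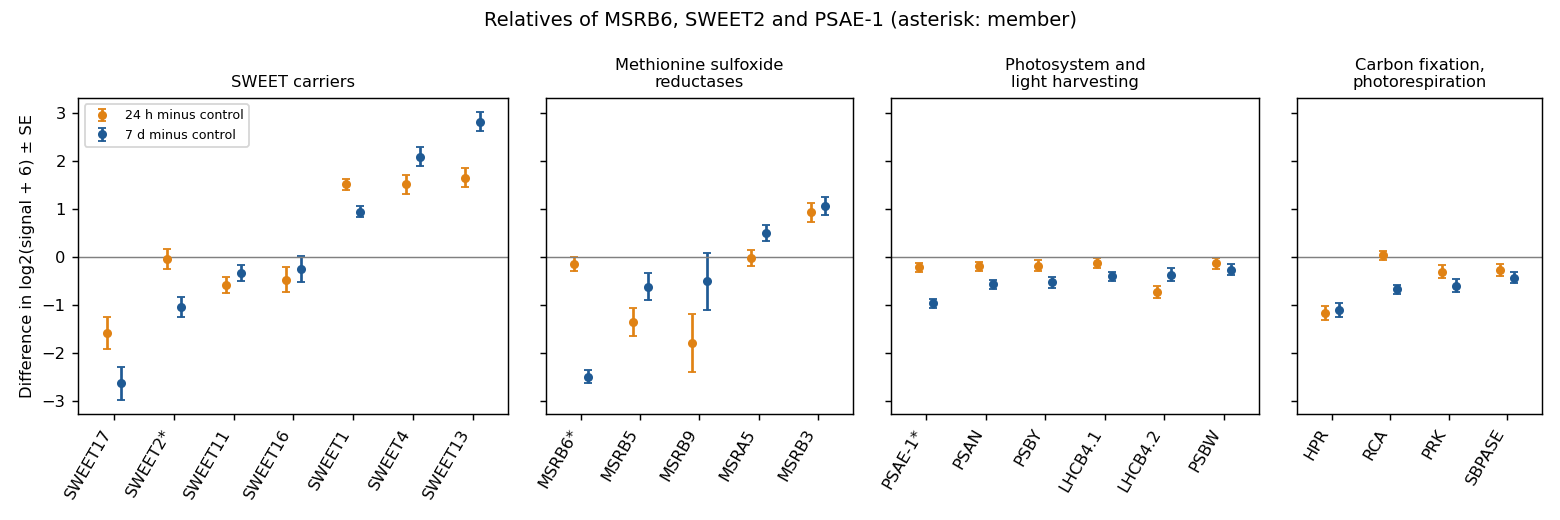
Difference from control in log2(signal + 6) at 24 h (orange) and 7 d (blue) for tested genes of 4 lists, with the SE of the limma fit (2 arrays per time); an asterisk marks a member. SWEET13, SWEET4 and SWEET1 lie above 0 at both times while SWEET2 and SWEET17 lie below it at 7 d, and MSRB6 lies lowest of its family at 7 d.

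RING1 encodes a RING-type ubiquitin ligase known for a role in programmed cell death. It read 379 and 514 in the control, 464 and 742 at 1 h, 338 and 582 at 24 h, and 133 and 285 at 7 d. Replicate 2 was the higher array at every time, and the gap was widest as a ratio at 7 d. Its difference of -1.15 ± 0.38 SE therefore had the largest error of the named members (209 ± 108 at 7 d against 447 ± 95.2 in the control).

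Among the genes known by a locus tag, AT2G23840 was lowest after MSRB6. It read 115 and 120 in the control, 88.7 and 104 at 1 h, 116 and 130 at 24 h, and 42.8 and 37.2 at 7 d (2.69-fold lower at 7 d than in the control, -1.43 ± 0.15). Both 7 d arrays were well below the rest, and 24 h overlapped the control. AT1G67870 gave 976 and 972 in the control, 991 and 826 at 1 h, 880 and 732 at 24 h, and 374 and 464 at 7 d (2.32-fold lower, -1.21 ± 0.15). Its 24 h arrays were both under the controls, and at -0.28 it was the named member nearest to the 24 h bound. AT5G54940, of the SUI1 family of translation initiation factors, gave 880 and 1012 in the control, 1288 and 1356 at 1 h, 898 and 831 at 24 h, and 380 and 509 at 7 d (2.13-fold lower, -1.09 ± 0.15). Its 1 h arrays were the highest, which did not pass against the control (0.48 ± 0.15, adjusted p = 0.404).

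AT1G62500 and AT4G22490 both belong to the family of protease inhibitors, seed storage and lipid-transfer proteins. AT1G62500 had 366 and 402 in the control, 401 and 359 at 1 h, 320 and 323 at 24 h, and 255 and 119 at 7 d. AT4G22490 had 223 and 204 in the control, 240 and 188 at 1 h, 195.0 and 195.4 at 24 h, and 148 and 68.8 at 7 d. In both genes replicate 1 at 7 d lay much closer to the controls than replicate 2, and the differences were -1.11 ± 0.28 for AT1G62500 and -1.03 ± 0.29 for AT4G22490. AT3G48460, of the GDSL lipase family, had 72.6 and 67.4 at 7 d against 144 and 141 in the control (-0.97 ± 0.18). AT1G73920 had 177 and 122 at 7 d against 242 and 301 in the control (-0.85 ± 0.19). In AT3G48460 these 2 groups were well apart, but its 1 h arrays (96.5 and 116) already lay below both controls. Its 24 h arrays read 103 and 142. The pairs of AT1G73920 were more spread in the control and at 7 d, with both 7 d arrays still below both controls.

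Transport was represented by AT5G02180, of the amino acid transporter family, and AT1G61740, of the TauE/SafE family of membrane proteins. AT5G02180 was weak, with 26.46 and 26.40 at 7 d against 47.5 and 84.4 in the control (-1.10 ± 0.28), and its lower control array was the named one nearest to the minimum of 40. AT1G61740 read 614 and 544 in the control, 545 and 507 at 1 h, 1105 and 658 at 24 h, and 371 and 275 at 7 d. Both its 24 h arrays exceeded the controls, 1 of them by far, and both 7 d arrays were below (-0.84 ± 0.24).

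AT3G61260, a remorin, which is a plant protein of plasma-membrane domains, had the highest 24 h value of the named members. It read 457 and 445 in the control, 466 and 382 at 1 h, 979 and 749 at 24 h, and 290 and 226 at 7 d. It stood at 0.92 ± 0.18 at 24 h and -0.80 ± 0.18 at 7 d, so the 7 d arrays were 3.29-fold below those of 24 h. AT1G23130, of the Bet v 1 family, was bright at all times, with 868 and 1130 at 7 d against 2019 and 1488 in the control (-0.80 ± 0.18). AT4G28240, of a wound-responsive family, had 166 and 216 at 7 d, 240 and 208 at 1 h and 344 and 326 in the control. It was the member whose 7 d arrays overlapped its 1 h arrays.

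The remaining named members lay between -1.11 and -0.81 at 7 d. AT3G56290 had 259 and 278 at 7 d against 496 and 574 in the control, and AT5G45350, a proline-rich protein gene, 262 and 316 against 546 and 496. In both the 7 d arrays were alike and far from the controls. AT1G27030 had 66.6 and 42.4 at 7 d against 132 and 110 in the control, and AT2G12400 had 48.4 and 26.1 against 91.6 and 76.8. AT1G13990 had 51.2 and 90.8 at 7 d against 107 and 155 in the control, with its higher 7 d array near the lower control. AT3G18500 had 69.2 and 66.9 at 7 d against 156 and 102 in the control. AT2G14900, of the gibberellin-regulated GASA family, had 43.5 and 26.6 at 7 d against 64.0 and 66.4, and AT5G42760 had 46.0 and 42.5 against 75.8 and 88.7 in the control. These low signals carry the most weight from the added 6, which makes a difference smaller.

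**Figure D4:**
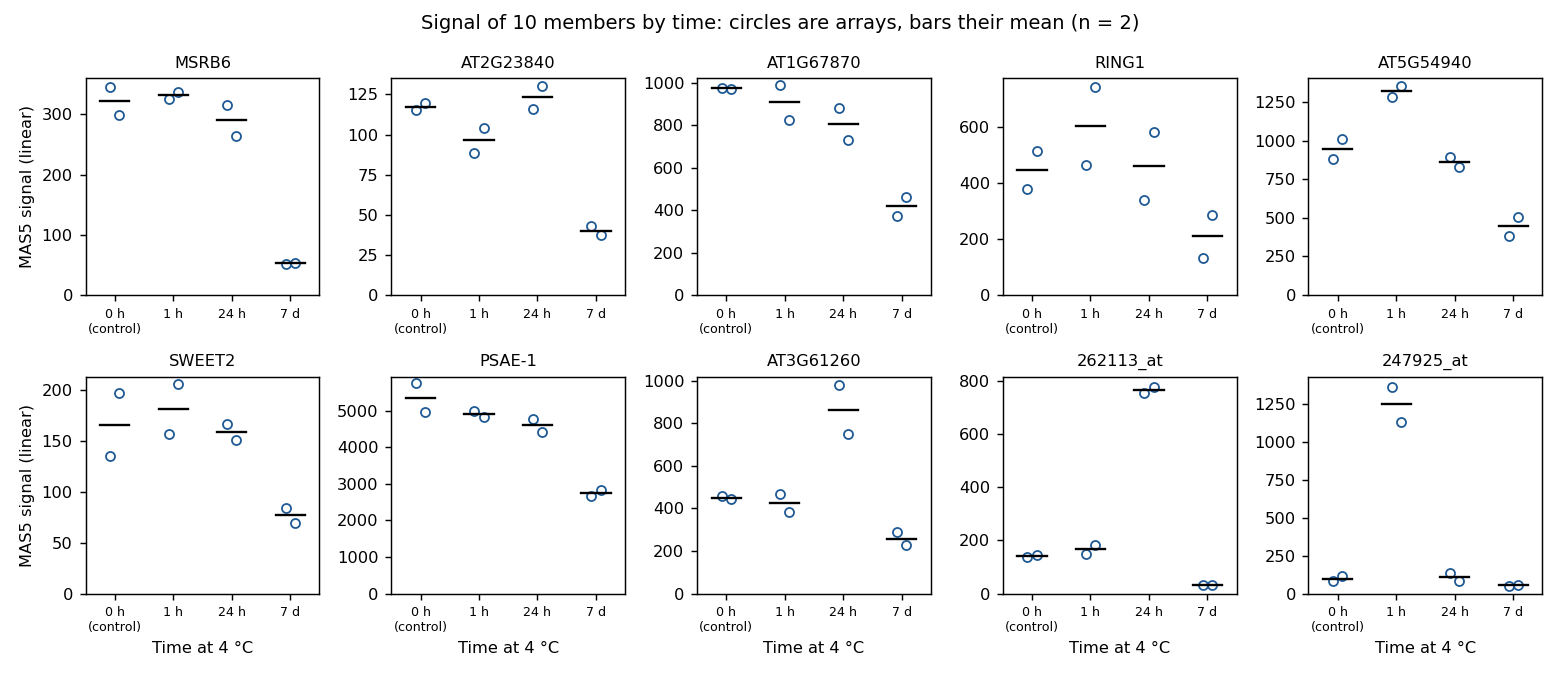
MAS5 signal (linear axis from 0) of 10 members at 0 h, 1 h, 24 h and 7 d at 4 °C, with circles for arrays and bars for their mean (n = 2). MSRB6 and AT2G23840 show tight 7 d pairs far below the other times, the 2 arrays of RING1 stay apart at every time, and AT3G61260, 262113_at and 247925_at peak before 7 d.

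Among members with no named gene, 4 are described, singled out after their values were seen. Probe set 262113_at read 139 and 146 in the control, 150 and 183 at 1 h, 752 and 776 at 24 h, and 31.2 and 34.0 at 7 d. It was far above the control at 24 h (2.38 ± 0.14) and far below it at 7 d (-1.94 ± 0.14), a difference of -4.32 at 7 d minus 24 h. Its pairs of arrays nearly coincided, except at 1 h. Probe set 252885_at followed the same course with more spread: 783 and 460 in the control, 768 and 527 at 1 h, 1266 and 1603 at 24 h, and 237 and 280 at 7 d. Probe set 266005_at read 325 and 320 in the control, 299 and 290 at 1 h, 276 and 263 at 24 h, and 103 and 98.5 at 7 d, a small step down and then a large one. Probe set 247925_at was the one with a response at 1 h: it read 83.7 and 114 in the control, 1362 and 1134 at 1 h, 135 and 84.5 at 24 h, and 50.0 and 57.2 at 7 d.

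The 1 h arrays were not used by the rule, so 1 h against control is the comparison that was tested, although it shares its control arrays with the rule. Of the 54 members, 247925_at rose at 1 h, 12-fold (3.59 ± 0.23 SE, adjusted p = 0.000252 by limma over all 14756 probe sets), and 0 were lower. At an unadjusted p under 0.05, 4 were higher and 2 lower, where 4.19% and 2.51% of all probe sets were. At the adjusted threshold, 0.867% of all probe sets were called higher and 0.0407% lower, so 1 of 54 is near the background. The median difference of the members at 1 h was -0.03, against -0.04 for all probe sets. Of the members, 42 lay within 0.3 of 0, 7 above and 5 below, and 80.1% of all probe sets lay within 0.3. At 1 h the members as a group were thus placed like the probe sets at large. The next smallest adjusted p after 247925_at was 0.251, that of 260287_at, whose 1 h arrays, 255 and 189, both exceeded its controls, 136 and 101 (0.88 ± 0.23). The lowest 1 h differences of named members were those of AT4G28240 (-0.57 ± 0.17, adjusted p = 0.356) and AT3G48460 (-0.41 ± 0.18, adjusted p = 0.734), with 246133_at, which names no gene, between them (-0.47 ± 0.24, adjusted p = 0.835). Both 1 h arrays lay above both controls in 9 members and below both in 6, where 14.9% and 21.9% of all probe sets did so.

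**Figure D5:**
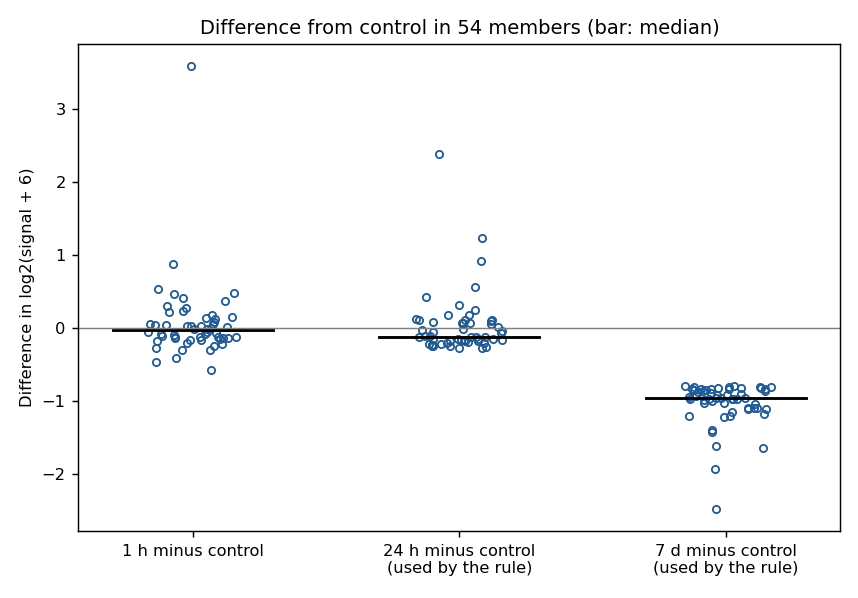
Circles are the 54 members' differences from control in log2(signal + 6) at 1 h, 24 h and 7 d, and bars their medians (-0.03, -0.12 and -0.96). The 24 h and 7 d values were bounded by the rule; at 1 h the members scatter about 0 apart from 247925_at at 3.59.

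Set against the 1 h arrays, a comparison added after the values were seen, both 7 d arrays lay below both 1 h arrays in 53 of 54 members, where 28.7% of all probe sets tested did so. The exception was AT4G28240. By limma 42 members were lower at 7 d than at 1 h, where 8.72% of all probe sets were called, and the median was -0.96. The 7 d arrays had been chosen to be low, so these counts are no independent evidence of a fall. Without 1 h replicate 2 the 42 became 23.

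For the contrasts that the rule used, limma called 47 of 54 members lower at 7 d against control (8.54% of all probe sets) and 34 of 54 lower at 7 d against 24 h (4.21% of all probe sets). It called 4 higher at 24 h against control, where 11.1% of all probe sets were. RING1 and AT1G13990 were among the members not called at 7 d against control. Nothing is read from these counts, which the choice of members fixed. The 47 became 21 without control replicate 1, 25 without control replicate 2 and 26 without 7 d replicate 2. The 34 became 9 without 24 h replicate 1, 14 without 24 h replicate 2 and 19 without 7 d replicate 2.

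Between the cold times, 24 h against 1 h, a comparison also added later, limma called 4 members higher and 3 lower, where 11.6% and 14.9% of all probe sets were called. The rule used the 24 h arrays, so these counts too are a description.

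At 24 h the 2 cold arrays overlapped the 2 control arrays in 38 members, lay above both in 6 and below both in 10. Of all probe sets tested, 26.4% lay above and 39.4% below. The rule bounded the 24 h and control values, so nothing is read from these counts. The 6 members above 0.3 at 24 h included 262113_at, 252885_at, AT3G61260 and AT1G61740, together with 253174_at (0.42) and 265475_at (0.32). The spread between replicates differed widely among members. The ratio of the higher to the lower control array had a median of 1.17 and reached 1.94, and it passed 1.5 in 8 members. At 7 d the same ratio had a median of 1.23 and reached 2.16, and it passed 1.5 in 11 members. Probe set 261569_at shows how far apart replicates could be, with 356 and 651 in the control, 288 and 653 at 1 h, 525 and 511 at 24 h, and 138 and 164 at 7 d.

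Membership near the bounds was a matter of small differences, given here for probe sets that name 1 gene. Just inside the 7 d bound of -0.8 were AT3G61260 (-0.801) and AT4G28240 (-0.802), and just outside it AT5G11090 (-0.796) and CRR41 (-0.795). At the 24 h bound of -0.3, AT1G67870 (-0.278) and AT1G62500 (-0.250) lay just inside and AT2G36885 (-0.305) and AT5G05200 (-0.310) just outside. For the control minimum of 40, AT5G02180 (47.5) and AT2G14900 (64.0) were inside, and AT1G33340 (36.5) and AT1G72230 (31.8) outside. Some members that name no gene also lay near a bound. The lower control array of 246133_at read 40.9, nearer to the minimum than those named, and 261307_at, at -0.275 at 24 h, lay between AT1G67870 and AT1G62500. With 1 array left out in turn, over the 6 arrays that the rule uses, 14 of the 54 met it every time. The 5 of these that named a gene were MSRB6, AT2G23840, AT1G27030, AT5G54940 and AT3G56290, and the other 9 included 262113_at, 252885_at and 266005_at.

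Of 7 listed markers of roots, PYK10, a beta-glucosidase of ER bodies, was the only one named and tested. It read 152 and 130 in the control, 158 and 144 at 1 h, 109 and 85.3 at 24 h, and 15.6 and 18.9 at 7 d, so a transcript abundant in roots was low on both 7 d arrays. Its part in the members' values was not tested. None of 7 listed leaf mesophyll markers was named, so the labelled tissue could not be checked by them, but PSAE-1 and RCA, transcripts of green tissue, were bright on every array. The median over all probe sets was 37.5 and 35.9 on the 7 d arrays and 37.7 on both control arrays. It was 37.5 on both 1 h arrays and lower, 34.3 and 32.8, on the 24 h arrays. As a sign of RNA quality, the GAPDH signal at the 3' end over that at the 5' end was 1.36 and 1.17 at 7 d and 1.24 and 1.26 in the control, and that of ubiquitin 2.13 and 2.14 at 7 d and 2.88 and 2.22 in the control. That of actin was 1.47 and 1.37 at 7 d and 1.31 and 1.32 in the control, higher on both 7 d arrays, and its part in the members' values was not tested. Across probe sets, which are no independent replicates, r between the 2 arrays of a time was 0.972 to 0.976.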

How the data were processed

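The deposited values of the 8 ATH1 arrays are MAS5 signal intensities, per the submitters' processing notes (no version given). The authors' intensities have a mean of 100 on every array once 2% of values are trimmed at each end. Arrays were grouped by title. Of 22810 probe sets, 64 controls were left out. Genes came from the platform annotation (13513 probe sets with 1 gene, 503 with several, 8730 with none), updated through RefSeq's table for TAIR10.1. Intensities were used as log2(signal + 6). The test covered each probe set that reached the 40th percentile of 2 or more arrays (14756, all 54 members among them, which their control signals ensured), with limma 3.58.1 in R 4.3.3: a mean per time over all 8 arrays, eBayes with a variance trend, 4 residual degrees of freedom, two-sided tests and Benjamini-Hochberg adjustment over all probe sets tested. The step was also run on simulated data whose noise was independent between arrays, unlike these arrays if the replicate numbers pair them. The number of arrays limits the precision: the members' median SE of a log2 difference was 0.20.

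The members, gene lists, tests and alternatives were chosen with earlier results of these data known. Among members that name 1 gene, those described were the 12 lowest at 7 d, the 6 highest at 24 h, the 4 highest and 4 lowest at 1 h, members with a symbol or in a list, and those beside each bound. The other members described, with a gene or without, were added after their values were seen. Of 18 pathway lists, those that hold a member are given, together with that for carbon fixation and photorespiration, and 2 families added later. The carbon fixation list holds no member, and other pathway lists without a member are not described above. Among these, cell wall loosening had 4 of 8 tested genes lower at 7 d, and cold-regulated genes had 5 of 6 higher. The starch and sugar list, which shares genes with the SWEET family, was left out of the account above. Among its 10 tested genes limma called 2 up and 2 down at 7 d against control. Their median difference at that time was -0.08. No sequences were used here.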

Additional observations from a re-analysis of the deposited data

Results flagged for a closer look

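In 7 members the 24 h and 1 h arrays stood apart in limma's comparison of 24 h with 1 h, added after the data were seen. The 24 h arrays had helped to choose the members, so the values are a description and support no difference. The log2 difference, 24 h minus 1 h, was 2.17 ± 0.14 SE for 262113_at, 1.16 ± 0.26 for 252885_at, 1.01 ± 0.18 for AT3G61260 and 0.58 ± 0.11 for 253174_at. It was -3.47 ± 0.23 for 247925_at, -0.61 ± 0.15 for AT5G54940 and -0.72 ± 0.23 for 256433_at.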

How the results depend on the processing

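The list of members depended on single arrays and on scaling. The rule gave 54 members, and it gave 20 with the 24 h bound at 0 and 20 with the 7 d bound at -1. It gave 89 with each array centred on its median, of which 44 were among the 54. With quantile normalization, which gives every array the same spread of signals, it gave 68, of which 49 were among the 54. The members lost there included PSAE-1, AT1G67870 and AT1G23130. Leaving out 1 array gave 55 to 93; without control replicate 1 it gave 56, of which 32 were among the 54, and without 7 d replicate 1 it gave 93, of which 45 were. The 1 h count of 1 member higher and 0 lower was the same under every alternative run. Single 1 h results were recomputed for 33 members, which included those naming 1 gene but not every other member described. All 561 of these results kept their call. Apart from the 1 member called higher, the call kept was that of not passing, so it says little about how firm a difference was. Over all probe sets at 1 h, 128 were higher and 6 lower. The higher count was 215 with the replicate block and 32 to 157 with 1 array left out. The lower count was 3 with 1 added to the signal, 2 with those times fitted alone and 0 to 5 with 1 array left out.

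At 7 d against control 47 members were called (21 to 43 with 1 array left out). The count was 54 with the replicate block, 38 without the variance trend, 37 with those times alone and 36 without the percentile filter. Over all probe sets 1260 were called, with 1702 under the block, 771 when those times were fitted alone and 416 to 1082 with 1 array left out. At 7 d against 24 h 34 members were called, with 21 without the variance trend, 52 with the replicate block and 9 to 34 with 1 array left out. Over all probe sets that count was 621, with 1005 under median centring, 399 without the trend, 1094 with the block and 135 to 594 with 1 array left out. At 7 d against 1 h 42 members (23 to 39) and 1287 probe sets (457 to 1182) were called. The labels do not say what a replicate number marks. Replicate differences of any 2 times correlated across probe sets with r from 0.164 to 0.362, all above 0, so the numbers may pair the arrays, but with 2 numbers this was not established. With 2 arrays a time, small differences could not be resolved.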
